A study of Homo sapiens with 6 samples.

Results

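XPC and MDM2 are target genes of the transcription factor p53, and they moved in opposite directions in LX-2 cells treated with a fruit extract. They are 2 of 1458 protein-coding genes that could be tested from rows of the count tables lying on the strand opposite the gene. Each was read from the sum of long non-coding RNA rows whose exons overlap, by at least 50 bp, only that gene's exons on the other strand. XPC and MDM2 were picked because the libraries from the extract moved them apart, so their values after the extract are given as a description, without a test. The cynaroside libraries were not part of that choice, and the values after cynaroside were tested. These tests use the same DMSO libraries as the choice did, so they are not independent of it.

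LX-2 is a human hepatic stellate cell line, labelled wild type in every group, and stellate cells are the collagen-making cells of liver fibrosis. All cells were sampled after 24 h with 1 of 3 treatments: DMSO, the solvent control; FEBJ, an extract made from Brucea javanica fruit and thus a mixture of compounds; or cynaroside, a glucoside of the flavone luteolin. Each group had 2 total-RNA libraries, and the labels give no doses and do not say whether the libraries came from separate cultures, so a p-value here measures only the spread between libraries, which may be technical. As background, LX-2 is 1 line, derived from stellate cells immortalised with the simian virus large T antigen, a protein that binds p53; no read of that antigen was examined.

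p53 is a sequence-specific transcription factor that is held at low levels in unstressed cells and accumulates after DNA damage and other stress. MDM2 is the ubiquitin ligase that binds p53, blocks its activity and marks it for degradation. Since p53 itself induces MDM2 through an internal promoter of the gene, the pair forms a negative feedback loop. XPC is the damage sensor of global-genome nucleotide excision repair: it finds distorted DNA, recruits the TFIIH complex and is also induced by p53.

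The internal promoter of MDM2 is shown because it is the stretch through which p53 is known to act on this gene. It lies at chr12:68808767-68809001 on the plus strand of GRCh38.p14 and was taken from the RefSeq promoter table. The run below starts 250 bases before the annotated start and ends before the first annotated exon there. Capitals mark 20-base matches to the p53 consensus, a pair of consensus decamers with no spacer.
MDM2 internal promoter: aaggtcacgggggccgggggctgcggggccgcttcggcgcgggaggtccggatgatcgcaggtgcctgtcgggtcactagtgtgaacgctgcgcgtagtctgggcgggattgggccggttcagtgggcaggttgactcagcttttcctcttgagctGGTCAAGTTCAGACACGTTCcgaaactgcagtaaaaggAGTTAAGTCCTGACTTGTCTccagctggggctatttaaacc

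The 3 matches found in windows of the members are shown next, with capitals at the bases that match the consensus.
MDM2, upstream match: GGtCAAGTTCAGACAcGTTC
MDM2, downstream match: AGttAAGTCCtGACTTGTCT
XPC, match after the start: GAAtTTGCCCAGACAAGCaa
The upstream MDM2 match, at chr12:68808923-68808942, begins 94 bases before the start and departs from the consensus at 2 bases. The downstream MDM2 match, at chr12:68808961-68808980, begins 56 bases before the start and departs at 3 bases. The XPC match, at chr3:14178570-14178589 on the minus strand, begins 12 bases after the start and also departs at 3 bases. Of 35116 windows of 300 bases around RefSeq starts, 0.649% held a match with at most 2 departures and 5.20% held one with at most 3, so the XPC match is of a kind found at many genes. The consensus is its own reverse complement, so both strands were searched at once. A match is a description of letters and was not tested as a site.

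XPC (ENSG00000154767), on the minus strand of chromosome 3, was read from 1 row, its antisense gene XPC-AS1 (ENSG00000228242). The exons of XPC-AS1 span 4015 bp, of which 1140 bp lie over XPC exons (474 bp of coding sequence, 622 bp beyond the stop codon and 44 bp of other non-coding exon). A further 2416 bp lie over XPC introns and 459 bp outside the gene. MDM2 (ENSG00000135679), on the plus strand of chromosome 12, was also read from 1 row, the unnamed antisense gene ENSG00000257181. All 785 bp of its exons lie over MDM2 exons beyond the stop codon. The tables do not say how strand was treated, so transcripts of each gene and transcripts of its antisense partner cannot be told apart in these counts; every value called XPC or MDM2 below is the count on the opposite row unless the gene's own row is named.

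The own rows held far fewer counts than the opposite rows. Summed over the 6 libraries, the XPC row held 57.9 counts per kb of exon and XPC-AS1 3015 per kb. The MDM2 row held 1.81 counts per kb and its opposite row 4027 per kb. Both genes passed the filter on low counts in the opposite-strand reading, whereas of their own rows only that of XPC did.

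Depth varied between libraries. Gene rows held 1599000 to 4709317 counts per library, both extremes being cynaroside libraries, and 5.48% to 6.12% of all counts. Most of the remaining counts (87.4% to 88.3%) were tallied as lying in no feature. The rows used for the opposite-strand reading held 38.1% to 44.2% of the counts on gene rows. Of 13 stellate markers, COL1A2 and DES were at 0 in all 6 libraries on their own rows, and the summed own rows held 2747 and 3892 counts with DMSO, 424 and 638 with FEBJ and 357 and 817 with cynaroside. The summed markers of hepatocytes (8 genes; ALB, HNF4A and TTR at 0) ranged from 0 to 43 counts, those of endothelium (6 genes; CDH5, PECAM1 and VWF at 0) from 4 to 31, and those of macrophages (6 genes; CD163 and PTPRC at 0) from 8 to 43. Summed epithelial markers (6 genes) ranged from 966 to 6670 with EPCAM and KRT19 at 0. All of these are own-row sums, and own rows can hold few of a gene's counts here. Low sums therefore do not show that a cell type was absent. In lysates of a whole culture, fewer cells and less RNA per cell cannot be told apart, and every level below is a share of the counted RNA.

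XPC stood highest after FEBJ and lowest with DMSO. Levels are counts in the opposite-strand reading per 1000000 of its counts (CPM), scaled between libraries. In the DMSO libraries XPC was at 826 and 863 CPM, in the FEBJ libraries at 2610 and 2786 CPM, and in the cynaroside libraries at 1083 and 1181 CPM. The 3 groups did not overlap, and the raw counts behind these levels were 834 and 1279, 2745 and 4120, and 744 and 2384. The FEBJ mean was 2698 ± 124 CPM (SD, n = 2) against 845 ± 26.6 CPM (SD, n = 2) with DMSO, a difference of 1.67 ± 0.06 (log2, SE), or 3.19-fold. Of the 1458 genes, 11.04% had a larger log2 change after FEBJ, so XPC lay in the upper part of a broad distribution and not at its end. The cynaroside mean was 1132 ± 69.0 CPM (SD, n = 2).

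MDM2 stood highest with DMSO and lower in both treated groups. The DMSO libraries held 526 and 508 CPM, the FEBJ libraries 319 and 330 CPM, and the cynaroside libraries 326 and 411 CPM. Both DMSO libraries were above all 4 treated libraries, while the lower cynaroside library lay within the FEBJ range. The raw counts were 531 and 752 with DMSO, 336 and 488 with FEBJ, and 224 and 830 with cynaroside. The FEBJ mean was 325 ± 7.42 CPM (SD, n = 2) against 517 ± 12.8 CPM (SD, n = 2) with DMSO, a difference of -0.67 ± 0.12 (log2, SE), or 1.59-fold lower. Of the 1458 genes, 28.5% had a lower log2 change after FEBJ. The background in this comparison was high: 70.6% of the genes tested passed the threshold in either direction, 35.9% upward and 34.7% downward, and nothing is read from the members' directions against it.

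**Figure D1:**
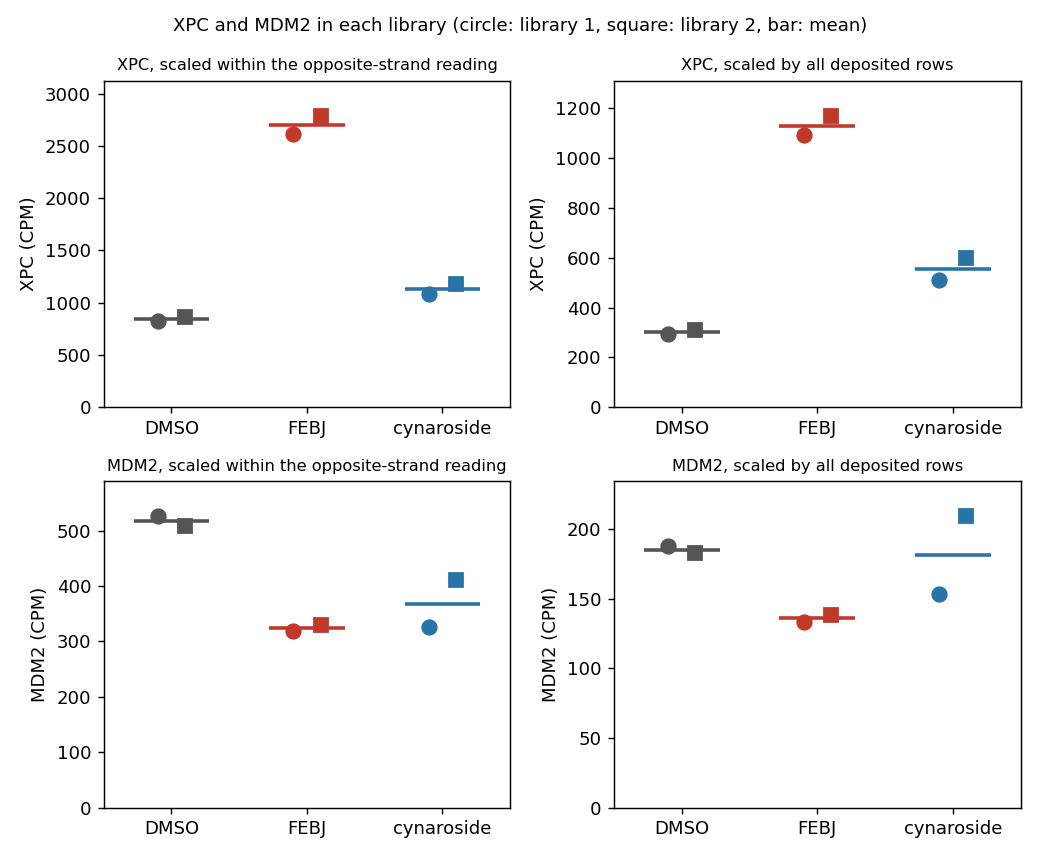
XPC (top) and MDM2 (bottom) in each library, in CPM scaled within the opposite-strand reading (left) or by all deposited rows (right); circles are the first library of a group, squares the second and bars the means. XPC is separated between the 3 groups under both scalings, whereas for MDM2 the cynaroside libraries lie below DMSO on the left (326 and 411 against 526 and 508 CPM) and on either side of it on the right.

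After cynaroside, XPC rose and MDM2 fell relative to the other genes of the reading. XPC rose by 0.43 ± 0.07 (log2, SE), or 1.35-fold, with both cynaroside libraries above both DMSO libraries (adjusted p = 4.77e-10 by the quasi-likelihood test of edgeR, adjusted over 1458 genes by the Benjamini-Hochberg method). MDM2 fell by 0.46 ± 0.12 on the log2 scale (SE), or 1.37-fold, with both cynaroside libraries below both DMSO libraries (adjusted p = 0.000509, edgeR). In this comparison 42.5% of the genes passed, 20.2% upward and 22.3% downward, so a call in itself was common. Larger log2 rises were seen for 19.9% of the genes and larger falls for 23.6%.

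The MDM2 result with cynaroside rested on the scaling and on 1 library. When the libraries were scaled by all deposited rows, the median gene of the reading moved up by 0.46 (log2), the MDM2 difference became 0.00257 (adjusted p = 0.988, edgeR) and XPC stood at 0.89. Measured from the median of all genes under each of 5 scalings, XPC was at 0.44 to 0.45 and MDM2 at -0.44 throughout. A scaling moves all genes by nearly the same amount, so these values had to agree and add no support. Without the first cynaroside library, which was the shallowest, the MDM2 difference was -0.31 (adjusted p = 0.0509, edgeR), and without the second it was -0.66.

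**Figure D2:**
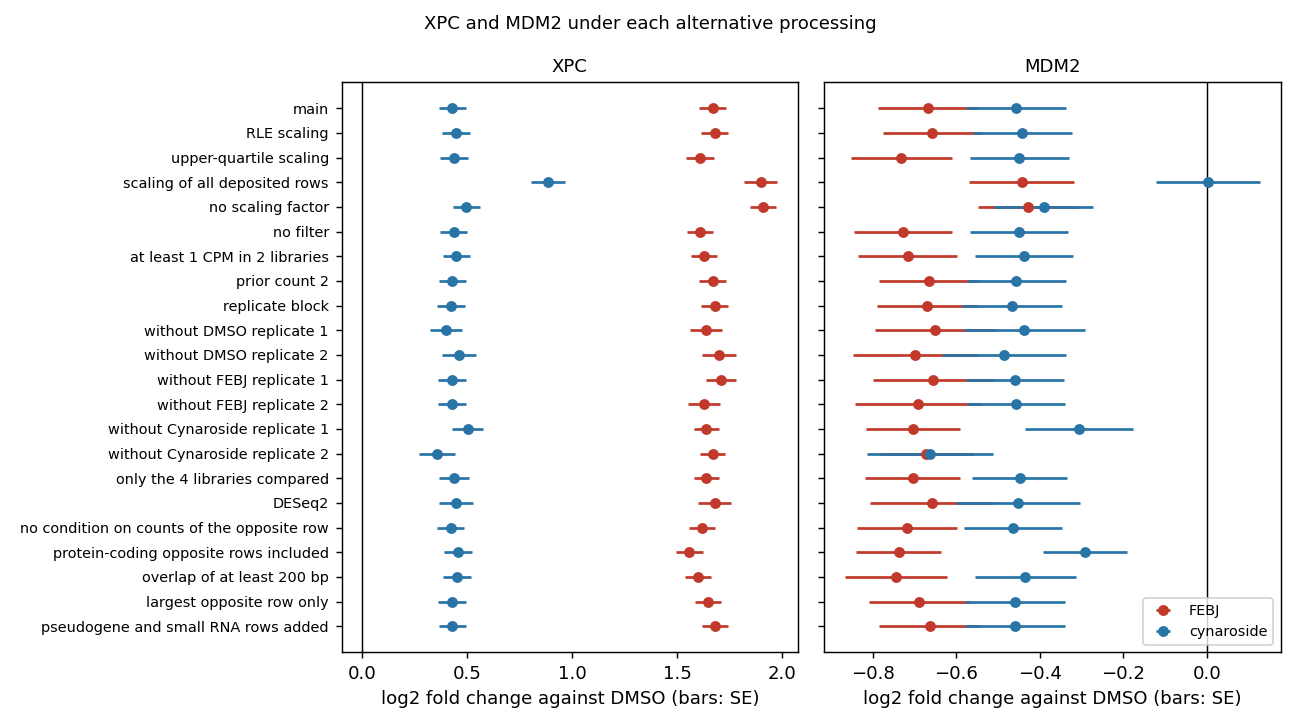
Log2 fold change against DMSO for XPC (left) and MDM2 (right) under the reported and each alternative processing, with FEBJ in red and cynaroside in blue; bars are standard errors. XPC stays above 0 in every setting drawn, and the MDM2 point for cynaroside reaches 0.00257 when all deposited rows set the scale.

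The ratio of the members to each other needs no scaling between libraries. With DMSO there were 1.57 and 1.701 XPC counts per MDM2 count, with FEBJ 8.17 and 8.44, and with cynaroside 3.32 and 2.87. Every FEBJ library was above every cynaroside library, and these were above both DMSO libraries. The group means were 1.64 ± 0.09, 8.31 ± 0.19 and 3.10 ± 0.32 (SD, n = 2 each). No test of the ratio was made. For cynaroside against DMSO an exact permutation test of 2 against 2 libraries could give no two-sided p under 0.333. The FEBJ and cynaroside comparisons share the same DMSO libraries and are therefore not independent of each other.

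**Figure D3:**
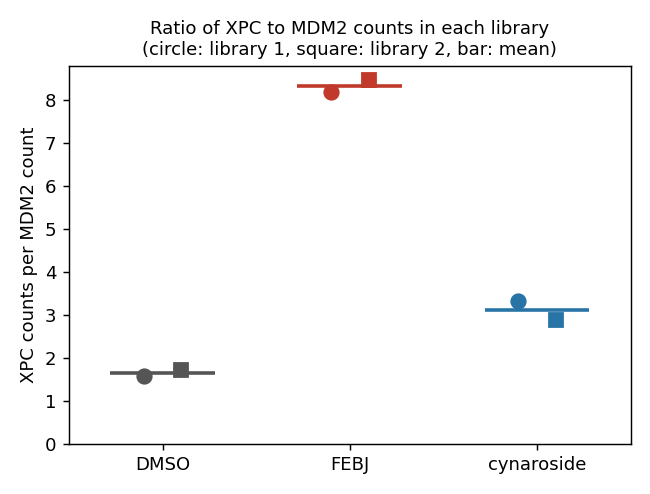
XPC counts per MDM2 count in each library on a linear axis, with circles for the first library of a group, squares for the second and bars for the means. The FEBJ libraries lie at 8.17 and 8.44, above the cynaroside libraries at 3.32 and 2.87 and the DMSO libraries at 1.57 and 1.701.

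Set directly against cynaroside, FEBJ left XPC higher by 1.24 ± 0.06 (log2, SE) and MDM2 lower by -0.21 ± 0.12 (log2, SE); both are descriptions, because they use the FEBJ libraries. The MDM2 value was -0.39 without the first cynaroside library, -0.00871 without the second and -0.0378 with no scaling factor. Per kb of the opposite row, XPC-AS1 stood at 206 and 215 CPM per kb with DMSO, 650.1 and 694 with FEBJ and 270 and 294 with cynaroside. The row opposite MDM2 stood at 670 and 647 CPM per kb with DMSO, 407 and 420 with FEBJ and 415 and 524 with cynaroside. Per kb of the whole opposite row, the MDM2 row was above XPC-AS1 with DMSO and with cynaroside, and below it with FEBJ. Only 1140 of the 4015 bp of XPC-AS1 lie over XPC exons, against all 785 bp for MDM2. This order is therefore one of rows and not of the genes' levels.

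The members' own rows held few counts and gave no call. The XPC row held 52 and 42 counts with DMSO, 58 and 80 with FEBJ and 12 and 34 with cynaroside. Scaled over all rows, these were 18.4 and 10.2 CPM with DMSO, 23.1 and 22.7 with FEBJ, and 8.23 and 8.57 with cynaroside. After FEBJ the XPC row differed by 0.70 ± 0.40 (log2, SE), as a description. After cynaroside it differed by -0.74 ± 0.44 and did not pass the test (adjusted p = 0.176, edgeR over 12012 rows). That value was -0.29 without the first DMSO library and -1.12 without the second. The MDM2 row held 4 and 2, 8 and 3, and 0 and 7 counts, 24 in all, too few to test.

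Own-row counts as a share of the opposite row are given for both members. As a percentage of the opposite row, the XPC row stood at 6.24% and 3.28% with DMSO, 2.11% and 1.94% with FEBJ, and 1.61% and 1.43% with cynaroside. The MDM2 row, on its few counts, stood at 0.753% and 0.266% with DMSO, 2.38% and 0.615% with FEBJ, and 0% and 0.843% with cynaroside, with no order between the groups. The median over 819 genes with at least 1000 opposite-row counts stood at 5.13% and 5.26% with DMSO, 2.87% and 2.80% with FEBJ and 1.65% and 1.63% with cynaroside, the same order as for XPC. Among 3911 rows of protein-coding genes that have no exon opposite another gene, the median log2 change was -1.02 after FEBJ and -1.40 after cynaroside. The part of this shift in the members' changes was not tested.

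Among other regulators of p53, 3 of the 4 that could be tested fell after FEBJ. The list held 41 genes, and the fourth of those tested rose, against 70.6% of all genes called, and their median was -0.89 against 0.03 over all genes. With protein-coding opposite rows included, 10 could be tested, of which 4 rose and 5 fell, with a median of -0.50. On own rows 32 of the 41 were tested after FEBJ: 5 rose, 11 fell and 16 did not pass. The called share there was 50%, against 50.8% of 12012 rows. AKT1, a kinase that promotes MDM2 activity, fell from 2924 and 2594 CPM to 831 and 913 CPM, a change of -1.65 ± 0.06 (log2, SE; adjusted p = 1.99e-163, edgeR). UBE2D3, a ubiquitin-conjugating enzyme that can work with MDM2, fell from a mean of 261 to 151 CPM. EP300, an acetyltransferase that acts on p53 and its target promoters, fell from a mean of 67.3 to 33.7 CPM.

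CDKN2A, whose ARF product inhibits MDM2, was the 1 of these 4 regulators that rose after FEBJ. It went from 704 and 629 CPM to 991 and 945 CPM (log2 change 0.54 ± 0.09, SE, adjusted p = 9.68e-10, edgeR). Its values come from the row of CDKN2B-AS1, a long non-coding RNA in its own right. After cynaroside, AKT1 was the 1 of these 4 genes that passed the test, with -0.22 ± 0.05 (log2, SE; adjusted p = 0.00021, edgeR), and it did not pass without the first DMSO library (-0.14, adjusted p = 0.119). Under scaling by all deposited rows AKT1 was at 0.23, and 3 of the 4 regulators rose.

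Other p53 targets divided in both directions after FEBJ. Of 98 listed, 14 could be tested in the reading: 4 rose, 4 fell and 6 did not pass, a called share of 57.1% against 70.6% over all genes, with a median of -0.10. None of the 17 targets of cell cycle arrest and feedback could be tested there. After cynaroside 0 of the 14 rose and 7 fell, a called share of 50% against 42.5% over all genes (20.2% upward, 22.3% downward). Their median was -0.48 against -0.01 over all genes. At an unadjusted p under 0.05 there was 1 rise. DESeq2 called 0 rises and 6 falls, and under scaling by all deposited rows 2 rose and 2 fell.

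The targets that rose after FEBJ were POLK, CES2, BTG1 and TRAF4. POLK, a translesion DNA polymerase that also works in excision repair, went from 419 and 452 CPM with DMSO to 929 and 942 CPM with FEBJ and stood at 415 and 418 CPM with cynaroside. CES2, a carboxylesterase, went from a mean of 152 to 239.6 CPM with FEBJ and stood at 192 CPM with cynaroside. POLK was 2.14-fold and CES2 1.59-fold higher with FEBJ than with DMSO.

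BTG1 and TRAF4 passed in both comparisons with opposite signs. BTG1, an antiproliferative factor, stood at 512 and 445 CPM with DMSO, 749 and 725 CPM with FEBJ and 189 and 174 CPM with cynaroside, read from the divergent transcript BTG1-DT. It rose by 0.63 ± 0.11 after FEBJ (adjusted p = 1.57e-08) and fell by 1.41 ± 0.12 after cynaroside (log2, SE; adjusted p = 3.87e-28, edgeR). TRAF4, a signalling adaptor, stood at 475 and 446, 647 and 653, and 304 and 313 CPM in the same order. Its cynaroside difference of -0.57 became -0.11 (adjusted p = 0.45, edgeR) under scaling by all deposited rows.

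The targets that fell after FEBJ were THBS1, STEAP3, VCAN and LIF. THBS1, the matrix protein thrombospondin, fell from 178 and 176 CPM to 21.9 and 19.6 CPM and stood at 68.4 and 69.8 CPM with cynaroside. Its log2 changes were -3.10 ± 0.27 and -1.35 ± 0.23 (SE; adjusted p = 2.23e-29 and 4.04e-08, edgeR). STEAP3, a metalloreductase, fell from a mean of 265 to 41.9 CPM after FEBJ and stood at 243 CPM with cynaroside.

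VCAN, a matrix proteoglycan, fell from a mean of 47.1 to 8.0 CPM after FEBJ and stood at 36.0 CPM with cynaroside. LIF, a cytokine, passed in both comparisons with edgeR and in neither with DESeq2 (adjusted p = 0.154 and 0.256), with 5.70 and 19.6 CPM in the FEBJ libraries and 26.2 and 2.97 CPM in the cynaroside libraries. Its FEBJ difference of -1.27 was -0.72 without the first FEBJ library, and its cynaroside difference of -1.54 was -0.30 without the second cynaroside library. It passed in neither comparison without 1 of the DMSO libraries.

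DRAM1, CD82 and CCDC90B passed after cynaroside. DRAM1, which acts in autophagy, stood at 136 and 126 CPM with DMSO and 69.9 and 74.8 CPM with cynaroside. CD82, a tetraspanin, stood at 329 and 293 CPM with DMSO and 191 and 214 CPM with cynaroside. Neither passed under scaling by all deposited rows, where DRAM1 was at -0.37 and CD82 at -0.13, and CCDC90B (-0.91 as reported) passed neither there (-0.44) nor without the first DMSO library (-0.67). After FEBJ none of these 3 genes passed as reported, with DRAM1 at -0.33, CD82 at 0.15 and CCDC90B at 0.51 (adjusted p = 0.154, 0.32 and 0.0538, edgeR). Under scaling by all deposited rows CD82 (0.38) and CCDC90B (0.73) passed after FEBJ (adjusted p = 0.0127 and 0.00695, edgeR), and CCDC90B also passed without the first DMSO library (0.0328), without the second cynaroside library (0.0385) and with only the 4 libraries compared (0.0454). The death receptor TNFRSF10A (-0.98 after FEBJ), the stress sensor SESN1 (-0.68) and ABHD4 (0.14) did not pass in either comparison as reported. After FEBJ, TNFRSF10A stayed uncalled in 13 of 21 alternatives (adjusted p from 0.0358 to 0.42) and SESN1 in 18 of 21 (0.0363 to 0.329), and TNFRSF10A ranged from -1.35 to -0.57 with 1 library left out.

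Excision repair genes tested beside XPC were mostly higher after FEBJ. Of 49 listed, 6 could be tested in the reading: 5 rose, 0 fell and 1 did not pass, a called share of 83.3% against 70.6%, with a median of 1.10 against 0.03 over all genes. At an unadjusted p under 0.05 there were also 0 falls, and DESeq2 called 4 rises and 0 falls. POLK, described above, is on this list too.

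LIG1, the ligase that seals repaired DNA, went from 554 and 605 CPM with DMSO to 1634 and 1775 CPM with FEBJ. XRCC1, a scaffold for ligation, went from 420 and 441 to 1307 and 1262 CPM. RFC5, a subunit of the clamp loader, went from 458 and 455 to 998 and 970 CPM. These were changes of 1.55 ± 0.08, 1.57 ± 0.09 and 1.11 ± 0.09 (log2, SE). For each gene both FEBJ libraries lay above both DMSO libraries. ERCC4, a subunit of the nuclease that cuts on one side of the damage, rose by 0.40 ± 0.17 (adjusted p = 0.0245, edgeR), a call kept in only 11 of 21 alternatives, where the adjusted p ranged from 0.000262 to 0.165. It was lost with DESeq2 (0.0754), without either DMSO library (0.0731 and 0.119), without the second FEBJ library (0.165), and under another scaling and several filters and readings. ERCC8, of the transcription-coupled branch, did not pass (-0.26 ± 0.26).

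After cynaroside 3 of the 6 repair genes rose and 0 fell, against 42.5% of all genes called, also with DESeq2 and at an unadjusted p under 0.05. RFC5 rose to 747 and 639 CPM (log2 change 0.58 ± 0.09), XRCC1 to 642 and 542 CPM (0.43 ± 0.09), a call lost when an overlap of at least 200 bp was asked for (0.24, adjusted p = 0.153), and ERCC4 to 281 and 219 CPM (0.71 ± 0.17). LIG1 stood at 635 and 559 CPM, a difference of 0.02 ± 0.08 that did not pass (adjusted p = 0.883, edgeR). Under scaling by all deposited rows 5 of the 6 rose, LIG1 at 0.48 among them. Of 27 listed genes of base excision and mismatch repair, PARP2 and SMUG1 could be tested: PARP2, a sensor of strand breaks, rose after FEBJ (0.66 ± 0.26, adjusted p = 0.0155, edgeR), a call lost with DESeq2 (adjusted p = 0.0562), without the first DMSO library (0.159) and without either FEBJ library (0.0503 and 0.07), and SMUG1, at most 16.0 CPM in any library, did not pass.

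**Figure D4:**
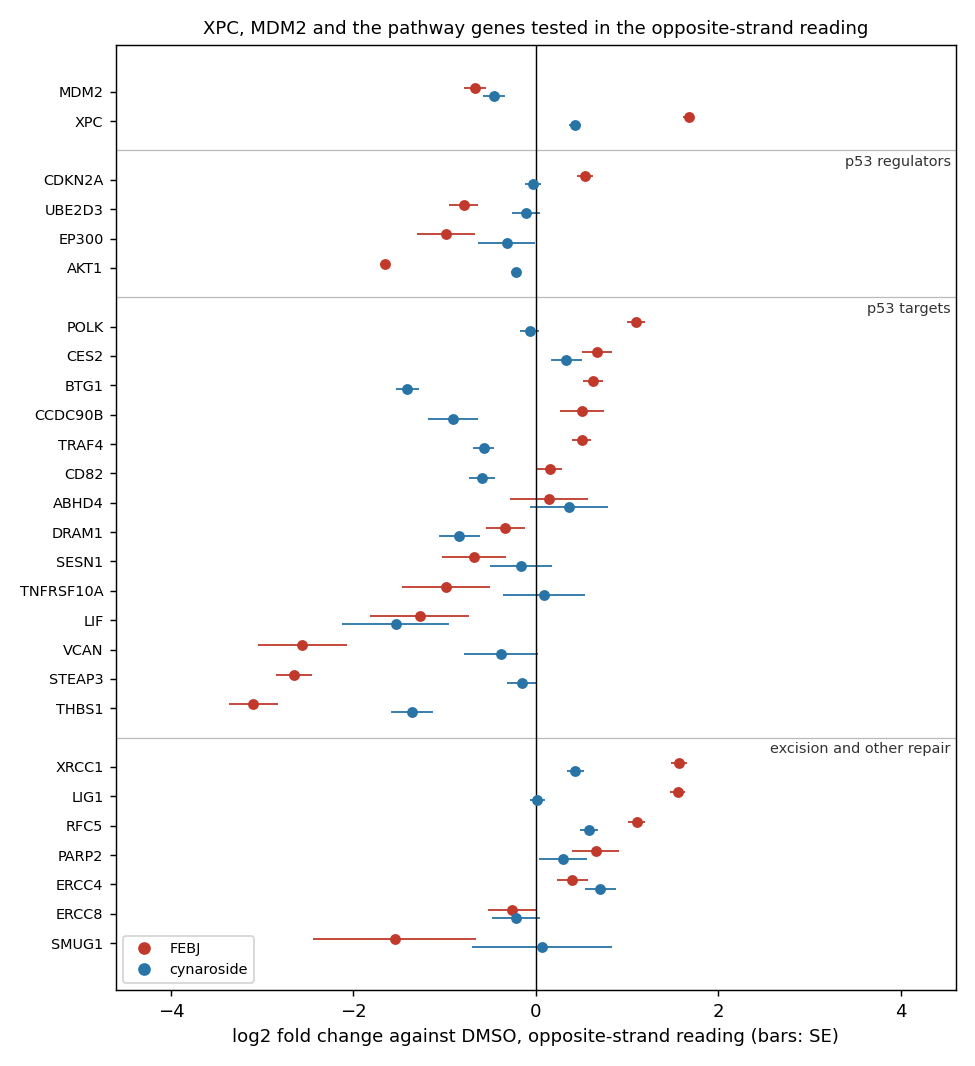
Log2 fold change against DMSO in the opposite-strand reading for XPC, MDM2 and the 25 listed genes that could be tested, with FEBJ in red and cynaroside in blue; bars are standard errors. Repair genes lie mostly right of 0 after FEBJ, with XRCC1 at 1.57 and LIG1 at 1.55, while the p53 targets lie on both sides, from POLK at 1.10 to THBS1 at -3.10.

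On the genes' own rows, all p53 targets together showed no single direction. Of 50 tested, 10 rose and 11 fell after FEBJ (42% called, against 50.8% of 12012 rows with 26.0% upward and 24.8% downward), and 6 rose and 13 fell after cynaroside (38%, against 45.4% with 24.3% upward and 21.1% downward). Of 37 excision repair rows, 4 rose and 6 fell after FEBJ (27.0% called), and 4 rose and 18 fell after cynaroside (59.5%). Of 3911 protein-coding rows with no exon opposite another gene, 475 rose and 1350 fell after FEBJ (46.7% called). After cynaroside 338 of these rose and 1525 fell (47.6%). Of the 23 repair rows of that class, 1 rose and 4 fell after FEBJ, and 3 and 11 after cynaroside. The 29 p53 target rows of that class gave 6 rises and 8 falls after FEBJ, and 3 and 11 after cynaroside. Falls outnumbered rises in that class in general. Over all rows, 2537 fell after cynaroside, and 1618 or 1543 did without the first or the second DMSO library.

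DDB2, which hands UV damage to XPC and is itself a p53 target, has no exon opposite another gene and was read on its own row. It held 80 and 97 counts with DMSO, 133 and 185 with FEBJ and 51 and 107 with cynaroside. It rose by 1.03 ± 0.25 after FEBJ (log2, SE; adjusted p = 0.0013, edgeR over 12012 rows) and did not pass after cynaroside (0.23 ± 0.27). Rows of its class, to which GADD45A and BAX also belong, had a median of -1.02 after FEBJ and -1.40 after cynaroside.

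GADD45A, a stress-induced growth arrest gene, held 99 and 160, 146 and 200, and 10 and 10 counts. Its rise after FEBJ (0.63 ± 0.27, adjusted p = 0.049, edgeR) was lost with DESeq2 (adjusted p = 0.129) and without any 1 of the 4 DMSO and FEBJ libraries, whereas its fall after cynaroside was -3.25 ± 0.38 (adjusted p = 7.38e-08, edgeR). BAX, a pore-forming death effector, held 27 and 42, 18 and 31, and 2 and 4 counts and passed after cynaroside (-3.09 ± 0.77, adjusted p = 0.00183, edgeR) but not after FEBJ (-0.30 ± 0.59).

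CDKN1A, the cell cycle inhibitor induced by p53, held 0 and 8, 9 and 22, and 0 and 2 counts and passed in neither comparison. The row of the death receptor FAS, which lies opposite ACTA2, rose after cynaroside by 1.91 ± 0.18 (adjusted p = 1.99e-09, edgeR) and did not pass after FEBJ. PCNA, the replication clamp, and TP53I3, a quinone reductase, passed in neither. MDM4, the partner of MDM2, and the death gene BBC3 held 3 and 6 counts in all and could not be tested.

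A gene near MDM2 on the same strand did not pass the test in the same reading. NUP107, a nuclear pore gene, was read from its own opposite row at 84.4 ± 6.69, 85.2 ± 8.60 and 84.3 ± 3.99 CPM (SD, n = 2 each) with DMSO, FEBJ and cynaroside. Its log2 differences were 0.01 ± 0.24 in both comparisons (adjusted p = 0.965 and 0.966, edgeR). SLC35E3, annotated between NUP107 and MDM2, held 22 counts on its own row and could not be tested. On its own row NUP107 held 26 and 21 counts with DMSO, 8 and 4 with FEBJ and 0 and 0 with cynaroside, and passed after cynaroside alone of the 2 comparisons (adjusted p = 0.00122, edgeR). CPSF6, an RNA-processing gene on the same strand, held 20 and 26, 2 and 2, and 0 and 3 counts on its own row and fell in both comparisons (adjusted p = 0.0166 and 0.0144, edgeR). Protein-coding rows with no exon opposite another gene had medians of -1.02 after FEBJ and -1.40 after cynaroside. The part of that general shift in the own-row values of NUP107 and CPSF6 was not tested. CPM, the carboxypeptidase gene on the other side, overlaps 133 bp of MDM2 exon on the opposite strand; its row held 144 and 232, 109 and 166, and 118 and 302 counts, did not pass after FEBJ (-0.25 ± 0.20) and rose after cynaroside by 0.54 ± 0.19 (adjusted p = 0.0244, edgeR).

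Beside XPC, the RNA-processing gene LSM3 overlaps 318 bp of XPC exon on the opposite strand. Its row held 58 and 55 counts with DMSO, 10 and 40 with FEBJ and 2 and 10 with cynaroside, and it fell after cynaroside (-2.96 ± 0.65, adjusted p = 0.000573, edgeR). LSM3 lies on the same strand as XPC-AS1, and its treated libraries were all below its DMSO libraries. After FEBJ the LSM3 row did not pass (-1.10 ± 0.54, adjusted p = 0.0933, edgeR). The own rows of the flanking genes SLC6A6 (27 and 46, 6 and 3, and 0 and 6 counts) and TMEM43 (40 and 45, 24 and 8, and 2 and 17 counts) fell after cynaroside (adjusted p = 0.00515 and 0.0241, edgeR), SLC6A6 after FEBJ too (0.0108). The part of the general shift of own rows (medians of -1.02 and -1.40) in the values of LSM3, SLC6A6 and TMEM43 was not tested either.

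Genes whose pattern over the 6 libraries lay nearest to each member were found among 1096 genes with a mean of at least 50 CPM, by Euclidean distance between log2(CPM + 1) values centred per gene. For XPC these were CDC42 (distance 0.15, Pearson r 1.00), CLCN7 (0.19, 0.99), TEPSIN (0.22, 0.99) and TMEM260 (0.24, 0.99). CDC42, a small GTPase of the cytoskeleton, stood at 148 and 167 CPM with DMSO, 498 and 566 with FEBJ and 207 and 211 with cynaroside. CLCN7, a lysosomal chloride transporter, stood at a mean of 1486, 4886 and 2121 CPM in the same order.

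For MDM2 the nearest were EHBP1 (distance 0.18, Pearson r 0.97), ABLIM3 (0.24, 0.95), FOXN3 (0.24, 0.94) and KPNB1 (0.30, 0.93). KPNB1, a nuclear import receptor, stood at 4521 and 4396 CPM with DMSO, 3056 and 3105 with FEBJ and 3521 and 3453 with cynaroside. FOXN3, a forkhead transcription factor, stood at a mean of 350, 230 and 231 CPM in that order. The correlations are over 6 libraries in 3 groups that share depth and treatment, and carry no test.

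**Figure D5:**
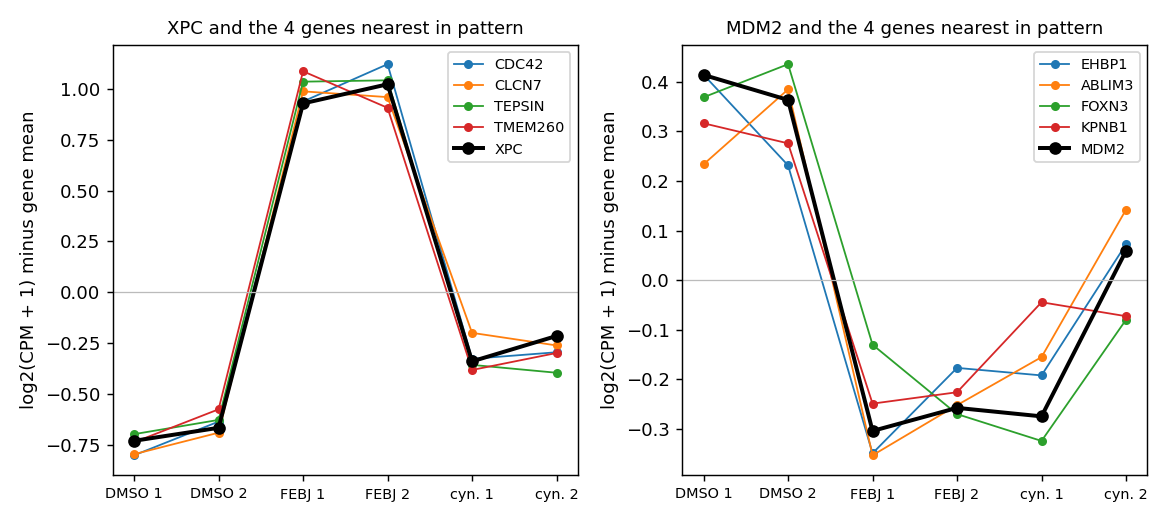
Log2(CPM + 1) minus each gene's own mean in the 6 libraries for XPC (left, black) and MDM2 (right, black) with the 4 genes nearest to each; lines join libraries for legibility and imply no order. The 4 genes beside XPC share its step up in the FEBJ libraries, and those beside MDM2 lie above their means in the DMSO libraries and below them in both FEBJ libraries.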

How the data were processed

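Total RNA from 6 LX-2 libraries was measured as counts per gene. Per the submitters' processing notes, the authors used CASAVA 1.7, HISAT2, HTSeq 0.12.4, DESeq2 1.38.0 and hg19; the kit, strand setting and annotation release are not given in the sources used here. The deposited counts are whole, unnormalized counts in 62754 gene rows, plus 5 summary rows left out of library sizes and tests; 62700 rows matched a symbol.

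Exon overlaps came from GENCODE 29 (GRCh38), so no position is printed for gene rows, hg19 and that build not having been reconciled; positions of promoter sequences are those of the RefSeq table (GRCh38.p14). Rows of long non-coding genes opposite exactly 1 protein-coding gene by at least 50 bp, with at least as many counts as the gene's own row, were summed: 1829 rows for 1702 genes, of which 1458 passed edgeR's filterByExpr. The condition on counts was waived for XPC and MDM2, whose opposite rows met it (12106 against 278 counts and 3161 against 24). edgeR 4.0.16 (R 4.3.3) was fitted to 3 groups with TMM factors within the reading (3 residual degrees of freedom) and p-values were adjusted over all genes at 0.05. The test pools the spread between libraries over genes. The members' p-values are therefore far smaller than 3 degrees of freedom alone would give, and rest little on each gene's own spread. The same fit was run on all deposited rows. limma 3.58.1 supported edgeR and DESeq2 1.42.0 was an alternative. Scripts were tested on simulated data.

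The members, gene lists and tests were chosen with earlier results of these data known. Named were the members and their rows, every listed gene tested in the reading, own rows of p53-pathway genes (1 is not reported here), the 4 nearest patterns per member and neighbouring genes. Other scalings, filters, readings, a replicate term and omission of each library were tried.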

Additional observations from a re-analysis of the deposited data

How the results depend on the processing

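XPC with cynaroside kept its direction and call in all 21 alternatives (0.36 to 0.89). MDM2 with cynaroside turned to 0.00257 under scaling by all deposited rows, and ranged from -0.66 to -0.31 with 1 library left out, its call being lost without the first cynaroside library; its adjusted p ranged from 0.00037 to 0.988 over the alternatives. The own XPC row stayed uncalled in all 14. With a replicate block XPC was at 0.43 (adjusted p = 2.14e-09, edgeR) and MDM2 at -0.47 (0.000429), and the block changed no call of the members. Same-numbered libraries deviated together hardly at all (r = -0.03, -0.01 and 0.07), which does not show whether they were handled together. Among listed genes the block ended the call of LIF after FEBJ (-1.20, adjusted p = 0.0632, edgeR).

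Described without a test, XPC after FEBJ moved to 1.90 (all deposited rows), 1.91 (no scaling factor, chosen after seeing the data) and 1.56 (protein-coding opposite rows included), and against cynaroside to 1.01, 1.42 and 1.10. MDM2 after FEBJ moved to -0.73 (upper quartile), -0.44 (all deposited rows), -0.43 (no factor), -0.73 (no filter), -0.72 (no condition on counts), -0.74 (protein-coding rows included) and -0.74 (200 bp overlap).

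Of all genes, 905 rose and 897 fell after FEBJ with protein-coding rows included; after cynaroside 571 and 592 did, and 738 and 105 under deposited-row scaling. With protein-coding rows included the reading held 2967 genes before the filter, against 1702 as reported. The listed genes tested then numbered 50, against 25 as reported. Of those 50, 18 rose and 15 fell after FEBJ, and 7 rose and 16 fell after cynaroside. Under deposited-row scaling 10 of 25 rose and 2 fell after cynaroside. At 200 bp 16 listed genes were tested, of which 6 rose after FEBJ and 1 after cynaroside.

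Deposited-row scaling moved the median gene of the reading by 0.46 with cynaroside, so genes with small negative values there changed sign by construction: CDKN2A (0.42), EP300 (0.14), AKT1 (0.23), UBE2D3 (0.35), STEAP3 (0.30), POLK (0.39), SESN1 (0.30), VCAN (0.0816) and ERCC8 (0.24). CDKN2A was at 0.0337 with no factor and CCDC90B at 0.58 with protein-coding rows included. With 1 library left out the values after cynaroside ranged from -0.137 to 0.0578 for CDKN2A, -0.271 to 0.511 for TNFRSF10A, -0.356 to 0.00752 for SESN1, -0.0412 to 0.13 for LIG1, -0.276 to 0.55 for SMUG1, and on own rows from -4.67 to 3.13 for CDKN1A and -0.0726 to 3.13 for TP53I3, which after FEBJ ranged from -1.47 to 1.73. Likewise 5 to 8 listed genes, and 1543 to 2649 deposited rows, fell after cynaroside. Except for that shift and for the samples removed, the cause of these changes was not tested. Few counts limit the precision on the own rows of the members and of CDKN1A, MDM4 and BBC3; why those rows held few was not tested.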
